A study of Mus musculus with 4 samples.

Results

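The epidermal growth factor (EGF) receptor family and its ligands were followed by the messenger RNA of 10 genes: the receptors Egfr, Erbb2 and Erbb3, the receptor inhibitor Errfi1, and the ligands Egf, Areg, Ereg, Hbegf, Tgfa and Btc. A gene was taken where a row of the array carried its symbol and no other, and of several such rows the one that was brightest on average was used. Of the 10 genes, 9 were measured in this way, among 19938 genes in all, and Areg was not analysed here. One further row carried Erbb2 together with another gene and was left out.

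The receptors of this family are tyrosine kinases that work in pairs. A ligand bound to the outside of the cell joins them, and the signal then runs through RAS and ERK and through PI3K. Ligands are made as membrane-bound precursors and are cut free by ADAM proteases, and Errfi1 blocks the kinase from inside the cell. Hepatocytes are known for a high number of EGF receptors, for their growth response to EGF, TGF alpha, amphiregulin and HB-EGF, and for Egfr transcription that depends on growth hormone.

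Liver RNA was hybridised to 4 whole-transcript arrays, with 1 array for each genotype and RNA of 3 livers pooled on each. All mice were 8 weeks old and labelled male, and no strain is given in the labels. The wild-type pool served as control. The MDR2-knockout pool came from MDR2 knockout mice, which lack the phospholipid carrier encoded by Abcb4 and develop cholestasis. The GHR-knockout pool came from knockout mice without the growth hormone receptor, and the double-knockout pool came from mice with both knockouts. The labels restrict neither knockout to a cell type. The series title asks whether resistance to growth hormone worsens the liver fibrosis of cholestasis.

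There is no second array of any genotype, so a difference between pools has no replicate error and no p-value. Such a difference was called where it was at least 1.5-fold and the higher pool was at or above an intensity of 100, the median of all rows with 1 symbol. Where both pools of a kind are said to lie above both others, this is only an order of single values. How many of all genes share such an order was not counted. The only test was a limma fit over all 4 arrays with the loss of GHR and the loss of MDR2 as additive factors, which leaves 1 residual degree of freedom per gene. It averages each effect over both backgrounds and assumes that the effect is alike in them. Adjusted p-values are Benjamini-Hochberg values over 10764 genes whose highest pool passed the level of 100. Rose and fell below refer to this fit at 0.05. Over the 10764 genes, unadjusted p-values under 0.05 (limma) numbered 1405 for GHR loss and 2540 for MDR2 loss.

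Facts of the whole series bear on these genes in several ways. Median intensity over rows with 1 symbol was 94 to 105, so the arrays were alike in scale, and their small number sets the precision. Ghr was 4944 and 4485 in the pools with the receptor gene intact and 1395 and 935 in the pools without it. Abcb4 was 1120 and 1346 against 663 and 689. Xist, which is transcribed from the inactive X chromosome of female cells, read 1400 in the GHR-knockout pool, against the label male, and 16 to 18 in the other pools. The Y-linked Eif2s3y was 680 in the GHR-knockout pool and 840 to 951 in the others. Results that rest on the GHR-knockout pool are therefore given beside those of the double-knockout against the MDR2-knockout pool, which do not use it. All 16 measured hepatocyte markers were above 100 in every pool, with a summed intensity of 134127 to 142086.

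Over the 9 measured genes, 2 were called between the GHR-knockout and the wild-type pool (Egfr and Errfi1), where 6.73% of all genes compared were called (4.25% higher and 2.48% lower). Between the double-knockout and the MDR2-knockout pool 1 was called (Egfr), against 11.0% of all genes (7.15% higher and 3.89% lower). Between the MDR2-knockout and the wild-type pool 1 was called (Btc), against 9.65% (6.09% higher and 3.56% lower). Between the double-knockout and the GHR-knockout pool 3 were called (Btc, Errfi1 and Erbb3), against 19.8% (9.95% higher and 9.89% lower), and between the double-knockout and the wild-type pool 3 (Egfr, Btc and Tgfa), against 21.3% (13.7% higher and 7.58% lower). Higher calls made up 63.2% of the first comparison's calls and between 41.5% and 76.2% under other scalings. For the second the share was 64.8% and between 49.3% and 81.4%, for the fourth it was 50.1% and 64.5% with centring on hepatocyte markers, and for the fifth 64.3% and 81.7% with that centring. With 9 genes a single call moves the share widely, so the results are given gene by gene. In the limma fit Egfr was the only one of the 7 genes tested that passed for loss of GHR, where 0.520% of all genes passed (0.204% higher and 0.316% lower, an even split with hepatocyte centring). Btc was the only one that passed for loss of MDR2, where 3.75% did (2.99% higher and 0.762% lower). It reached the level that admits a gene to the fit only through the pools where it was high, so its test is not firm.

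The median log2 difference of the 9 genes was 0.05 between the GHR-knockout and wild-type pools, 0.07 between the double-knockout and MDR2-knockout pools, 0.13 between the MDR2-knockout and wild-type pools, 0.37 between the double-knockout and GHR-knockout pools and 0.45 between the double-knockout and wild-type pools. The medians of all 19938 genes were 0.05, 0.00, 0.00, -0.02 and 0.00. The first of the medians of the 9 genes turned below 0 with centring on the median gene, and the second did so with that centring and with cyclic loess. Comparisons that share a pool are not independent of each other.

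**Figure D1:**
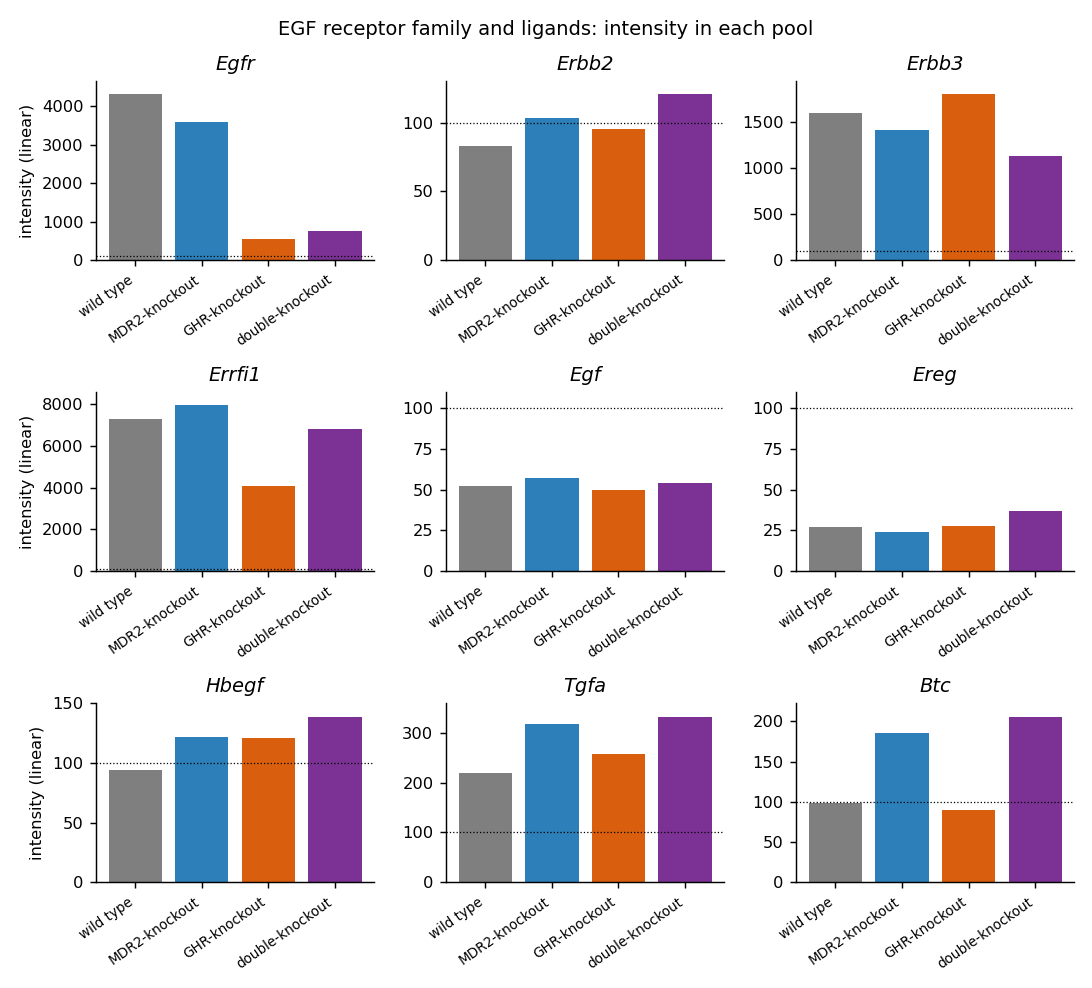
Bars give the linear intensity (vertical axis) of each of the 9 measured genes in the wild-type, MDR2-knockout, GHR-knockout and double-knockout pools, 1 array each without error bars, and the dotted line marks an intensity of 100. Egfr is 558 and 741 in the pools without GHR against 4315 and 3596 in those with it, and Btc is 185 and 206 in the pools without MDR2 against 99 and 90.

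Egfr, the receptor that binds EGF, TGF alpha, amphiregulin, HB-EGF, betacellulin and epiregulin, fell with loss of GHR. Its intensity was 4315 in wild type, 3596 in the MDR2-knockout pool, 558 in the GHR-knockout pool and 741 in the double-knockout pool. Both pools with the growth hormone receptor were high and both without it were low. The GHR-knockout pool was 7.73-fold lower than the wild-type pool and the double-knockout pool 4.85-fold lower than the MDR2-knockout pool. These were the 12th and the 42nd lowest differences among 10052 and 10524 genes compared. The averaged effect of GHR loss was -2.61 on the log2 scale with a standard error of 0.20 (limma, adjusted p = 0.0157), 20th of 10764 genes by p-value. The averaged effect of MDR2 loss on Egfr was 0.07 with a standard error of 0.20 (limma, adjusted p = 0.86). The call for GHR loss held in 6 of 8 alternative fits. It was lost with no level filter (limma, adjusted p = 0.518, where no gene was called) and with arrays centred on hepatocyte markers (limma, adjusted p = 0.0589). The effect stayed between -2.72 and -2.51 over all 8.

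In whole liver, fewer cells of a type and less RNA per cell cannot be told apart. Beside the lower Egfr, the summed intensity of the hepatocyte markers was 142086, 138510, 135094 and 134127 in the wild-type, MDR2-knockout, GHR-knockout and double-knockout pools. Albumin (Alb) was 15283, 15242, 13255 and 14956 in these pools. Of the 16 markers, 0 were called lower in the GHR-knockout than in the wild-type pool, where 2.48% of all genes were. In the double-knockout pool 1 was called lower than in the MDR2-knockout pool (3.89%) and 2 lower than in wild type (7.58%). Egfr was also low in the double-knockout pool, where Xist was 17. The part of cell number and of the sex of the livers in the Egfr level was not tested.

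Most other genes known to respond to growth hormone were lower in the same pools, with differences that varied by gene. Leaving out Ghr itself, the gene that was knocked out, 5 of 6 such genes were called lower in the GHR-knockout than in wild type (2.48% of all genes) and 4 of 6 in the double-knockout than in the MDR2-knockout pool (3.89%). None of the 6 passed the limma fit for GHR loss, with 4 at an unadjusted p under 0.05 (1405 of all 10764 genes), while Ghr did (limma, adjusted p = 0.0177). Igf1, the hormone through which much of growth hormone acts, was 3951 in wild type, 3766 in the MDR2-knockout, 1546 in the GHR-knockout and 374 in the double-knockout pool. Its lowest pool was the double-knockout, while the lowest Egfr was in the GHR-knockout pool. The non-additive part, the difference with GHR loss without MDR2 minus that with MDR2, was 0.67 on the log2 scale for Egfr and -1.98 for Igf1. Its robust SD over 10764 genes was 0.33, and 12.0% of genes lay 1.5-fold or more from 0. Of the 9 genes, 2 did so, Egfr and Errfi1.

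**Figure D2:**
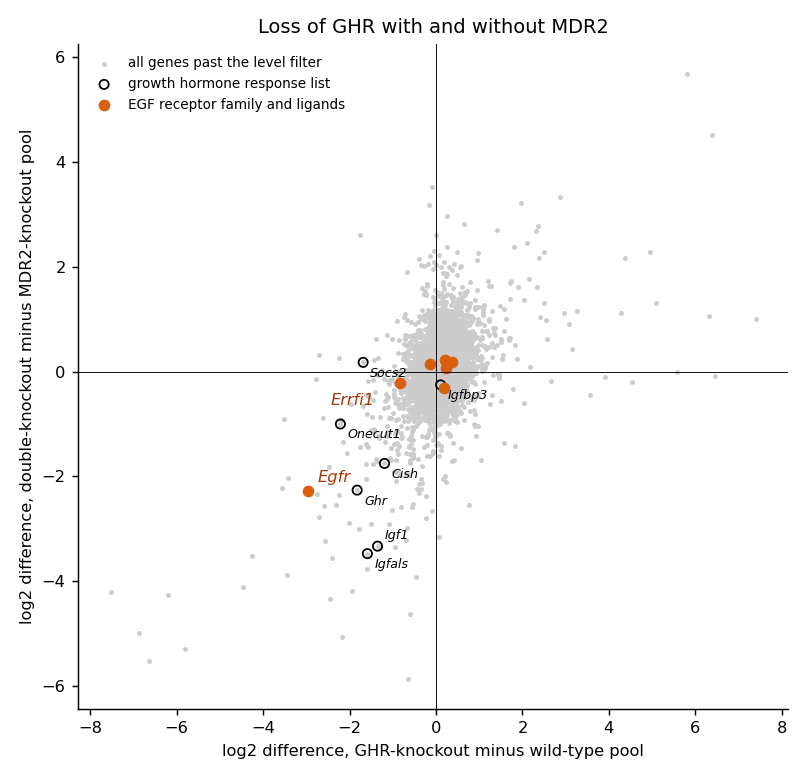
Each point is a gene past the level of 100, with its log2 difference between the GHR-knockout and wild-type pools on the horizontal axis and between the double-knockout and MDR2-knockout pools on the vertical axis, so that the axes share no array. Egfr lies at -2.95 and -2.28, on the side of most growth hormone response genes (open circles), while the other members past the level (orange) lie within 1 log2 unit of 0 on both axes.

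Sex-biased liver genes moved with the same pools. Of 10 measured genes known to be higher in male liver, 9 were called lower in the GHR-knockout than in wild type (2.48% of all genes) and 8 in the double-knockout than in the MDR2-knockout pool (3.89%). In the limma fit 5 of them fell with GHR loss, among them the fatty acid elongase Elovl3 and the oxysterol hydroxylase Cyp7b1. Of 10 measured female-biased genes, 9 were called higher in the GHR-knockout than in the wild-type pool (4.25% of all genes) and 4 in the double-knockout than in the MDR2-knockout pool (7.15%). Their summed intensity was 708, 569, 14527 and 4968 in the wild-type, MDR2-knockout, GHR-knockout and double-knockout pools. Between the double-knockout and GHR-knockout pools 7 were called lower (9.89% of all genes) and 1 higher (9.95%). The GHR-knockout pool is the one that carried Xist, and the part of its sex in these values was not tested. Whether these sex-biased programmes had a part in the Egfr level was not tested.

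The genes with a pattern most like that of Egfr were sought by the distance between log2 profiles over the 4 pools, each profile centred on its own mean. The 5 nearest of 10430 genes were C8a, Nat8f5, Cyp7b1, Saa2 and Nrep, at distances of 0.66 to 0.81, against a median distance of 2.75. C8a, a subunit of the complement attack complex, was 3984 in wild type, 4602 in the MDR2-knockout, 713 in the GHR-knockout and 1310 in the double-knockout pool. Cyp7b1 was 4966, 3326, 763 and 489, and Saa2, a serum amyloid of the acute phase, was 4723, 7446, 1169 and 1003. As follows from the way they were chosen, all were high in both pools with GHR and low in both without it.

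The sequence around the start of Egfr is shown because it is the member with the widest range, and that of Btc because it is the ligand that rose. Both are RefSeq promoters of the assembly GRCm38.p6, 250 bases before to 50 bases after the start. Egfr lies on the plus strand at chr11:16751953-16752252 and Btc on the minus strand at chr5:91402945-91403244. Sequences are written 5′ to 3′, and capitals would mark a motif match.
Egfr: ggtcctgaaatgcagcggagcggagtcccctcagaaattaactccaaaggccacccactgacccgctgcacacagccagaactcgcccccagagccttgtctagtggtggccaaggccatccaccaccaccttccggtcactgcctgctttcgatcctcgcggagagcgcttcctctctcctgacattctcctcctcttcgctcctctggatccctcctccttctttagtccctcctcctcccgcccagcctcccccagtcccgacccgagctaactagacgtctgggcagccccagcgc
Btc: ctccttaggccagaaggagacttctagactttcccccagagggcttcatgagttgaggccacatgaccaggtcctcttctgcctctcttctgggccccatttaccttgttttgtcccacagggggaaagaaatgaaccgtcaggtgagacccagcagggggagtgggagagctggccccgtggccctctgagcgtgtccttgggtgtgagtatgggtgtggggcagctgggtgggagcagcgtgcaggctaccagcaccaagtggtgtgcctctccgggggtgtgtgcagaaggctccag
Both windows were searched on both strands for TTCNNNGAA, the type of site bound by STAT5, and for TGANTCA, the type bound by AP-1. Neither window held a match, so no letters are in capitals. The first motif was found in 8.30% and the second in 7.81% of 32851 promoters of this length. RefSeq promoters were found for 7 of the 10 genes, with 9 windows, and none of these windows held either motif. GC content was 62.3% for Egfr and 60.3% for Btc, against a median of 52.7% over all promoters.

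Errfi1, which binds the kinase domain of EGF receptors and shuts it off, was 7305 in wild type, 7947 in the MDR2-knockout pool, 4076 in the GHR-knockout pool and 6830 in the double-knockout pool. The GHR-knockout pool stood below the other pools, 1.79-fold lower than wild type and 1.68-fold lower than the double-knockout pool. Between the double-knockout and MDR2-knockout pools, which both lack the Xist signal, the difference was 1.16-fold. The averaged effect of GHR loss was -0.53 with a standard error of 0.19 (limma, adjusted p = 0.362) and did not pass. Its non-additive part was 0.62 on the log2 scale. Errfi1 is also known as an early gene induced through ERK.

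Erbb3, a receptor with little kinase activity of its own that signals as the partner of other members, was 1588 in wild type, 1409 in the MDR2-knockout, 1795 in the GHR-knockout and 1129 in the double-knockout pool. The double-knockout pool was the lowest, 1.59-fold below the GHR-knockout pool. Erbb3 was slightly higher with GHR loss in the presence of MDR2 (0.18 log2) and slightly lower in its absence (-0.32). With cyclic loess or hepatocyte centring the difference between the double-knockout and GHR-knockout pools was under 1.5-fold. For MDR2 loss the averaged effect was -0.42 with a standard error of 0.17 (limma, adjusted p = 0.225).

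Erbb2, the receptor without a known ligand that pairs with the others, was 83, 104, 96 and 121 in the wild-type, MDR2-knockout, GHR-knockout and double-knockout pools. It lay near the level of 100 throughout, lowest in the wild-type and highest in the double-knockout pool, and was called in no comparison. Its largest difference was 1.46-fold, between the double-knockout and wild-type pools. MDR2 loss had an averaged effect of 0.33 with a standard error of 0.14 (limma, adjusted p = 0.227).

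**Figure D3:**
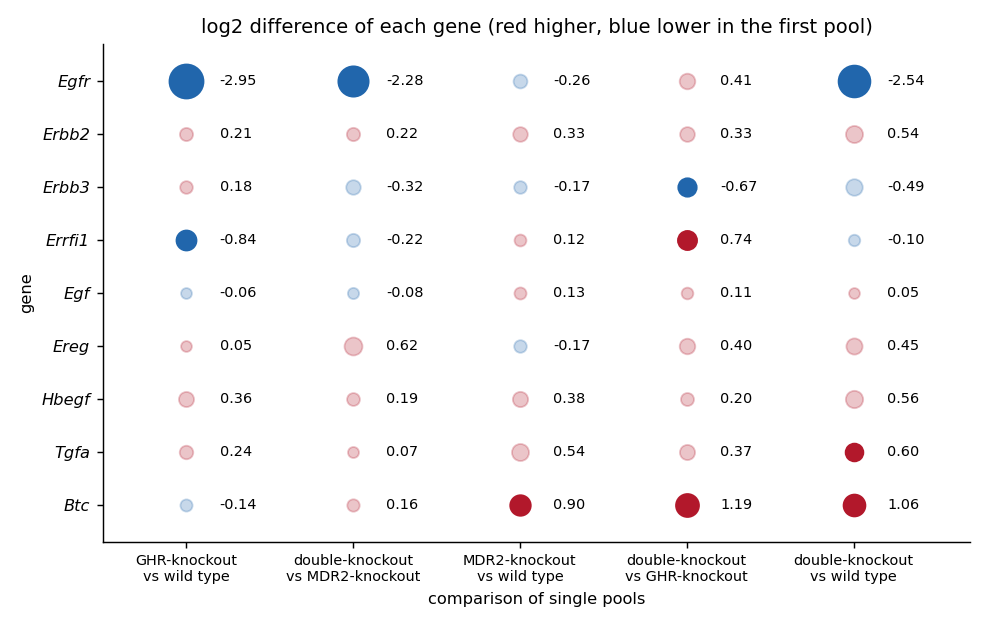
Circles give the log2 difference of each of the 9 measured genes (rows) in the 5 comparisons of single pools (columns), with area growing with size, red for higher and blue for lower in the first pool, and full colour where the difference is called at 1.5-fold. Egfr is called in the 3 columns that set a pool without GHR against one with it, and Btc in the 3 that set a pool without MDR2 against one with it.

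Btc, encoding betacellulin, a ligand of EGFR and ERBB4, rose with loss of MDR2. Its intensity was 99 in wild type, 185 in the MDR2-knockout pool, 90 in the GHR-knockout pool and 206 in the double-knockout pool. Both single values without MDR2 were above both with it. The MDR2-knockout pool was 1.87-fold higher than wild type and the double-knockout pool 2.29-fold higher than the GHR-knockout pool. The lower pool of each pair was at 90 to 99, not shown to be above background. Btc passed the level of 100 only through the pools where it was high, so these folds, the fitted effect and its test are not firm. The averaged effect of MDR2 loss was 1.05 on the log2 scale with a standard error of 0.15 (limma, adjusted p = 0.0357), and that of GHR loss was 0.01 with the same standard error (limma, adjusted p = 0.987). The call held in 5 of 7 alternative fits. It was lost with no level filter (limma, adjusted p = 0.327, where no gene was called) and with hepatocyte centring (limma, adjusted p = 0.0542), and with the level filter at the 75th percentile Btc was not tested.

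Markers of bile duct and inflammatory cells moved with Btc. The summed intensity of 16 cholangiocyte markers was 1129 in wild type, 2365 in the MDR2-knockout, 1396 in the GHR-knockout and 5888 in the double-knockout pool, and 10 of 16 were called higher in the MDR2-knockout than in the wild-type pool. The sum of 14 macrophage and monocyte markers was 4160, 11716, 5753 and 15682, with 10 of 14 called higher. The sum of 14 stellate cell and myofibroblast markers was 7445, 9959, 9086 and 12419, with 6 of 14 called higher. Between the MDR2-knockout and wild-type pools 6.09% of all genes were called higher. Endothelial markers summed to 6134 to 7788, and 10 of 11 measured lymphocyte and granulocyte markers were under 100 in every pool. No marker was listed at 0, and the lowest was 18. Between the MDR2-knockout and the double-knockout pool the cholangiocyte sum went from 2365 to 5888 while Btc went from 185 to 206. The part of these cells in the Btc level was not tested.

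**Figure D4:**
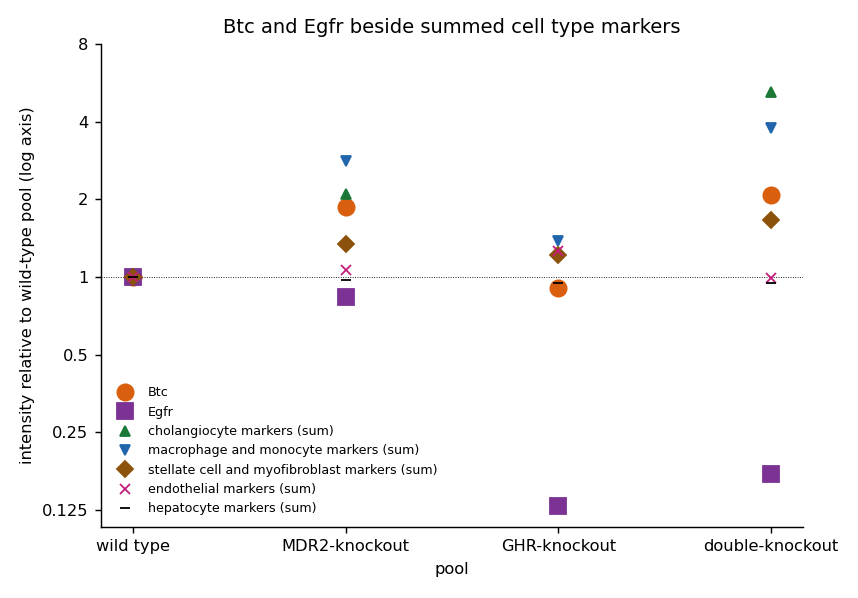
Points give the intensity of Btc, of Egfr and of the summed markers of 5 cell types in each pool (horizontal axis), divided by the wild-type pool, on a log axis with base 2. Btc (99, 185, 90 and 206 in the wild-type, MDR2-knockout, GHR-knockout and double-knockout pools) is high in the same pools as the cholangiocyte and macrophage sums, and hepatocyte markers stay near the dotted line at 1 in the pools where Egfr is low.

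The 5 genes nearest to Btc in profile over the 4 pools were Clu, Myl12b, Noct, Acot9 and Zdhhc2, at distances of 0.06 to 0.11 against a median of 1.14. Clu, the secreted chaperone clusterin, was 3484, 6461, 3151 and 6859 in the wild-type, MDR2-knockout, GHR-knockout and double-knockout pools. Myl12b, a regulatory light chain of myosin, was 1264, 2314, 1209 and 2695. As follows from the way they were chosen, both were higher in the pools without MDR2.

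Tgfa, encoding TGF alpha, a ligand that hepatocytes make and respond to, was 219 in wild type, 318 in the MDR2-knockout, 258 in the GHR-knockout and 333 in the double-knockout pool. Both pools without MDR2 were above both pools with it. Its difference was 1.45-fold between the MDR2-knockout and wild-type pools, just under the threshold, and 1.52-fold between the double-knockout and wild-type pools, just over it. With cyclic loess the first was called too, and with median centring or an offset of 32 the second was not. Averaged over both backgrounds, MDR2 loss gave 0.45 with a standard error of 0.14 (limma, adjusted p = 0.141) and did not pass.

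Hbegf, encoding HB-EGF, which binds EGFR and ERBB4, was 94, 122, 121 and 139 in the wild-type, MDR2-knockout, GHR-knockout and double-knockout pools. The wild-type pool was the lowest and the double-knockout pool the highest, 1.48-fold apart, and no comparison was called. The averaged effects were 0.28 for GHR loss and 0.29 for MDR2 loss, each with a standard error of 0.14 (limma, adjusted p = 0.477 and 0.29).

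Egf, the ligand that names the family and is made chiefly outside the liver, was 52, 57, 50 and 54 in the wild-type, MDR2-knockout, GHR-knockout and double-knockout pools. Ereg, encoding epiregulin, was 27, 24, 28 and 37. Both were under 100 in every pool, were not shown to be above background and were not tested. Ereg was 1.54-fold higher in the double-knockout than in the MDR2-knockout pool at these low values. In RefSeq order Epgn, Ereg, Areg and Btc are neighbours on chromosome 5. Of these, Epgn was 18 to 21 and Ereg 24 to 37 over the pools, while Btc was 90 to 206.

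Of the other ligands and receptors of the family, Nrg1, a neuregulin that binds ERBB3 and ERBB4, was 53 in wild type, 110 in the MDR2-knockout, 56 in the GHR-knockout and 142 in the double-knockout pool. Both pools without MDR2 were higher, and Nrg1 rose with MDR2 loss, by 1.20 on the log2 scale with a standard error of 0.15 (limma, adjusted p = 0.0293; 0.0231 to 0.327 over 7 alternatives, with the call lost only without a level filter). Nrg1 passed the level only through the pools where it was high, and 53 and 56 were not shown to be above background, so the fitted effect and its test are not firm. Nrg4, a neuregulin that binds ERBB4, was 106, 82, 152 and 195, higher in both pools without GHR, and its averaged GHR effect of 0.88 did not pass (limma, adjusted p = 0.215). Erbb4 was 145, 157, 148 and 112 and was called in no comparison. Epgn, Nrg2 and Nrg3 were under 100 in every pool.

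Of the genes that release ligands or regulate their release, none of the 10 tested passed in the limma fit for either loss. At an unadjusted p under 0.05 there were 2 for GHR loss and 5 for MDR2 loss, against 1405 and 2540 of all 10764 genes. Of 14 measured, 5 were called higher in the double-knockout than in the wild-type pool and none lower, where 13.7% of all genes were called higher and 7.58% lower. The 5 were Adam10, Cd9, Rhbdf1, Rhbdf2 and Timp3. Timp3, which inhibits ADAM17 and so ligand release, was 179, 262, 251 and 393 in the wild-type, MDR2-knockout, GHR-knockout and double-knockout pools. Rhbdf1 and Rhbdf2 encode the inactive rhomboids iRhom1 and iRhom2 that carry ADAM17, the main ligand sheddase, to the cell surface. Rhbdf1 was 111, 182, 131 and 310 and Rhbdf2 was 158, 308, 239 and 328 in the wild-type, MDR2-knockout, GHR-knockout and double-knockout pools. Adam17 itself was 391, 429, 406 and 483. Cd9, a tetraspanin that associates with HB-EGF and is also made by bile duct cells, was 192, 321, 146 and 511.

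In the cascade below the receptors, none of the 14 measured adaptors and members of the RAS and ERK cascade passed in the limma fit for either loss, with 2 at an unadjusted p under 0.05 for each. Only Gab2, an adaptor, was called, 1.84-fold higher in the double-knockout than in the wild-type pool. Of the 16 measured genes of the PI3K, phospholipase and STAT branch 15 were tested, and none passed, with 0 and 3 at an unadjusted p under 0.05 for GHR and MDR2 loss. Over all genes 1405 and 2540 of 10764 were under 0.05 (limma, unadjusted). Stat5a was 245, 282, 379 and 294 in the wild-type, MDR2-knockout, GHR-knockout and double-knockout pools. It was the 1 gene of this branch called higher in the GHR-knockout than in wild type (4.25% of all genes). Stat5b was 554, 443, 656 and 431, and was called lower in the double-knockout than in the GHR-knockout pool (9.89%). Both calls rest on the GHR-knockout pool. The kinase Src was 158, 246, 143 and 273 in the wild-type, MDR2-knockout, GHR-knockout and double-knockout pools, and its effect of MDR2 loss missed the threshold (limma, adjusted p = 0.0569).

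Of 27 measured genes of receptor turnover and feedback, a list that leaves out Errfi1, 4 were called higher in the GHR-knockout than in wild type, 5 in the double-knockout than in the MDR2-knockout pool, and none lower in either. Over all genes 4.25% and 7.15% were called higher, and 2.48% and 3.89% lower, in these comparisons. The median log2 differences of the 27 genes were 0.20 and 0.29, against 0.05 and 0.00 over all genes, many of them under the level of 100. With arrays centred on the median of genes past that level they were 0.08 and 0.20. Without such centring the adaptors and RAS-ERK cascade stood at 0.18 and 0.15, so the first value is not particular to this list. Dusp6, the phosphatase that inactivates ERK, was 399, 359, 785 and 715 in the wild-type, MDR2-knockout, GHR-knockout and double-knockout pools, 1.97-fold and 1.99-fold higher with GHR loss. Spred1, an inhibitor of RAS activation, was 252, 224, 422 and 419. Cblb, a ubiquitin ligase of activated receptors, was 186, 259, 340 and 426. Each was higher in both pools without GHR than in both with it, but no gene of the list passed for GHR loss in the limma fit, with 8 of 23 tested at an unadjusted p under 0.05. Of all 10764 genes, 1405 were under 0.05 for GHR loss (limma, unadjusted). Spry4, an inhibitor of receptor kinase signals, was 209, 123, 353 and 155 and fell with MDR2 loss, by 0.98 on the log2 scale (limma, adjusted p = 0.0461), a call that held in 2 of 8 alternative fits (limma, adjusted p from 0.0379 to 0.327).

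Of 20 measured early genes commonly induced through ERK, 5 were called higher in the MDR2-knockout than in the wild-type pool and none lower, and 7 were called higher and 1 lower in the double-knockout than in the GHR-knockout pool. Over all genes 6.09% were called higher and 3.56% lower in the first comparison, and 9.95% and 9.89% in the second. With GHR loss the list went both ways. Between the GHR-knockout and wild-type pools 3 were called higher (Egr1, Klf6 and Ccnd1) and 3 lower (Jun, Myc and Phlda1), and between the double-knockout and MDR2-knockout pools 3 were called higher (Egr1, Ier3 and Klf6) and 1 lower (Phlda1). The shares of all genes called higher and lower were 4.25% and 2.48% in the former, and 7.15% and 3.89% in the latter. Jun, Atf3 and Klf6 rose with MDR2 loss, by 1.68, 1.32 and 1.34 on the log2 scale (limma, adjusted p = 0.0486, 0.0236 and 0.0285). Over the alternative fits the call held in 1 of 8 for Jun, in 6 of 7 for Atf3 and in 6 of 8 for Klf6. Atf3 read 84 in wild type, under the level, so its fitted effect is not exact. Klf6, a zinc finger factor induced by injury, was 171, 378, 274 and 790 in the wild-type, MDR2-knockout, GHR-knockout and double-knockout pools. Egr1, a zinc finger factor, was 112, 201, 310 and 480 and rose with GHR loss, by 1.36 (limma, adjusted p = 0.0376, held in 3 of 8 alternative fits, 0.0235 to 0.518). Ccnd1, cyclin D1, was 280, 1456, 997 and 2065, lowest in wild type, and did not pass for MDR2 loss (limma, adjusted p = 0.0540). Phlda1 was 1155, 931, 656 and 413, lower in both pools without GHR. Several of these genes are also expressed by macrophages and bile duct cells, whose markers moved with MDR2 loss as given above, and their part was not tested.

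**Figure D5:**
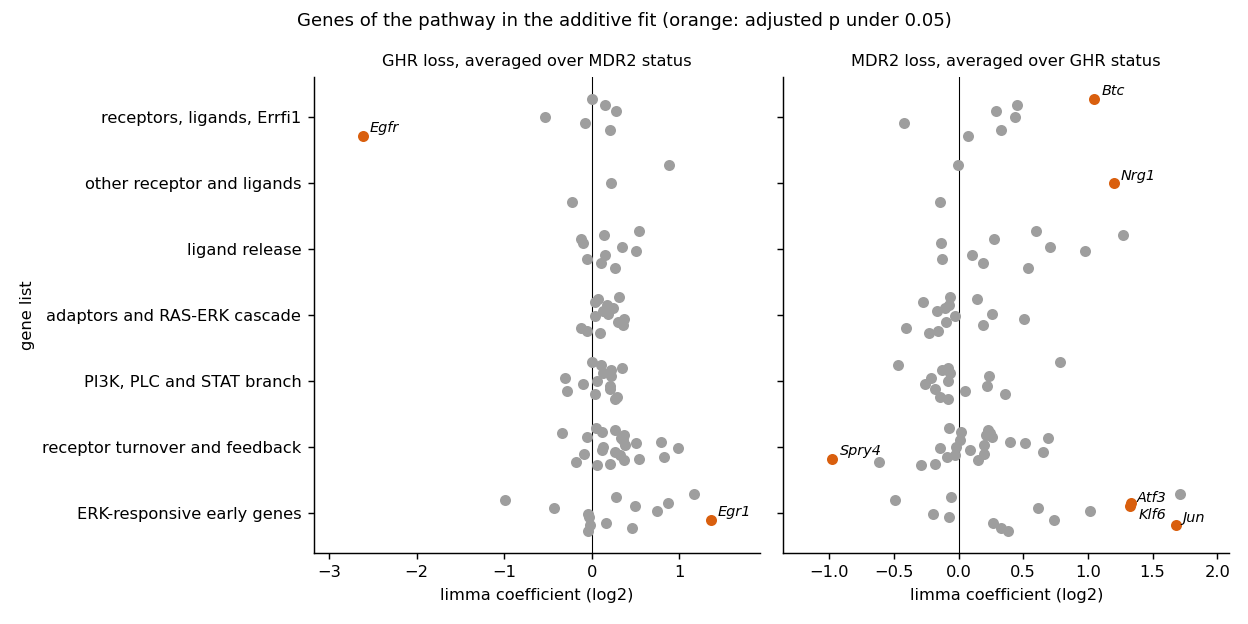
Points are genes of each list (rows) that passed the level of 100, placed by the limma coefficient on the log2 scale for loss of GHR (left) and loss of MDR2 (right), with orange for an adjusted p under 0.05. On the left Egfr at -2.61 and Egr1 at 1.36 are orange, and on the right Btc, Nrg1, Jun, Atf3, Klf6 and Spry4 are. Btc and Nrg1 passed the level only through the pools without MDR2.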

How the data were processed

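The authors deposited 1 intensity per probe set and array, from RMA in Affymetrix Expression Console 1.1 per the submitters' processing notes. RMA corrects background, quantile normalizes and summarises probes. Deposited intensity ran from 6 to 22355 in whole numbers, a linear scale, and was put on the log2 scale here; rounding makes differences between low values coarse. No detection calls were used and no coordinates were taken from the files.

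Of 35556 rows, 21789 had exactly 1 gene symbol in GEO's platform annotation, 1621 several and 12146 none, and 21698 were matched to RefSeq by gene identifier. Samples were grouped by labelled genotype. The fit used limma 3.58.1 (lmFit and eBayes, 4.34 prior degrees of freedom) in R 4.3.3 and was tested on simulated data. Named genes are all members, checks of the labels, and the 5 nearest profiles for members with a log2 range of at least 1. Also named are some list genes called at 1.5-fold (at most 4 per list and comparison) and some that passed the fit. Others of both kinds are not named. Some list genes (Adam17, Erbb4, Alb and those named for a level under 100) lie outside that rule and were named after their values were seen. The members and lists were chosen with earlier results of these data known.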

Additional observations from a re-analysis of the deposited data

Results flagged for a closer look

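In 4 genes of the pathway lists the difference with GHR loss ran in opposite directions with and without MDR2 and differed by at least 2-fold. Each direction rests on 1 pool per genotype, the difference was not tested, and the GHR-knockout pool is the one with Xist at 1400.

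Cd9 was 192, 321, 146 and 511 in the wild-type, MDR2-knockout, GHR-knockout and double-knockout pools, lower with GHR loss when MDR2 was present and higher when it was absent, with a difference of 1.07 on the log2 scale. Dusp4, an ERK phosphatase, was 70, 68, 52 and 132 in these pools, with a difference of 1.39. Only its double-knockout value was above 100, so the lower value with GHR loss lies wholly below that level and neither its direction nor the size of the difference is firm. Jun was 439, 934, 289 and 1389, with a difference of 1.18. Myc was 358, 377, 183 and 409, with a difference of 1.09.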

How the results depend on the processing

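No paired analysis was possible because each genotype is 1 array, and for the same reason no array could be left out. Under other scalings, an offset of 32 or the mean of all rows, 225 member differences were recomputed. Of these, 223 moved by less than 0.23 log2, and none that was called changed sign. That limit was scaled down to a single difference from the robust SD of the non-additive part, taking that part as noise only. Small differences of Egf, Ereg, Errfi1 (double-knockout minus wild type) and Tgfa (double-knockout minus MDR2-knockout) did change sign with scaling. The counts of called members named next moved by over 1.5 times. With no level filter the double-knockout against MDR2-knockout count was 2 in place of 1 (Ereg added), and the limma counts for GHR and MDR2 loss were 0 in place of 1 each, with 1 and 3 members at an unadjusted p under 0.05. No gene of 19938 passed there, 1828 and 2927 had an unadjusted p under 0.05, and the prior degrees of freedom were 1.41. With the filter at the 75th percentile (intensity 329) the MDR2-knockout against wild-type count and the limma count for MDR2 loss were 0 (1 member and 1279 of 5749 genes at an unadjusted p under 0.05), since Btc was below the filter. Cyclic loess gave 2 in the MDR2-knockout against wild-type comparison. Hepatocyte centring gave 5 in the double-knockout against wild-type comparison (Erbb2 and Hbegf added) and limma counts of 0, with 2 and 4 members, and 2124 and 2406 of 10764 genes, at an unadjusted p under 0.05. It moved the median of all genes by 0.14 (double-knockout minus MDR2-knockout), 0.11 (double-knockout minus GHR-knockout) and 0.19 (double-knockout minus wild type), and median centring moved it by -0.12 (GHR-knockout minus wild type). At 2-fold the counts were 1 for GHR-knockout against wild type, 0 for MDR2-knockout against wild type and 1 for double-knockout against GHR-knockout. Over all genes limma called 56 for GHR loss, 32 with the 75th percentile filter and 22 with hepatocyte centring. For MDR2 loss it called 404, 69 and 158. At the 75th percentile filter 371, 629, 477, 1204 and 1211 genes were called at 1.5-fold in place of 676, 1161, 990, 2086 and 2230 in the order of the report's counts, with fewer genes compared. Intensities under 100 were not shown to be above background, which limits Egf and Ereg in every pool and Btc, Erbb2 and Hbegf in their lower pools.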
